A study of Drosophila melanogaster with 4 samples.

Results

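The neighbouring genes ci and pan lie near the left end of chromosome 4 of Drosophila melanogaster, and pan encodes TCF, the transcription factor whose binding was mapped. TCF, also named Pangolin, is the DNA-binding protein of the Wingless (Wnt) pathway. In the absence of a signal TCF works with the co-repressor Groucho, and after a Wingless signal Armadillo, the fly β-catenin, joins TCF and target genes are switched on. The gene ci encodes Cubitus interruptus, the zinc-finger transcription factor of the Hedgehog pathway, which acts as an activator in its full form and as a repressor in its cleaved form. In the embryonic epidermis Wingless and Hedgehog signals maintain each other across the parasegment boundary, so pan and ci encode the nuclear ends of a pair of linked pathways.

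The peaks described here are those of the deposited list whose midpoint lay on chromosome 4 from 30 to 145 kb (FlyBase release 5). These were 13 of the 4589 peaks in the list, and 13 of the 135 on chromosome 4. The rule used position alone, and no score. The remaining 122 peaks of chromosome 4 served for comparison. In the release 6 gene table, used here for names and gene order only, RpS3A is the only protein-coding gene listed between ci and pan. RpS3A encodes a protein of the small ribosomal subunit. An antisense RNA (asRNA:CR43957) and a small nucleolar RNA (snoRNA:CD-24) also lie between them. The protein-coding neighbours on either side are PlexB, which encodes a plexin receptor, and Ank, which encodes an ankyrin. Because the peaks and the gene table are on different releases, no single peak is assigned to ci, to pan or to one of these neighbours. Below, peaks at ci and pan are the peaks of this window, by position only.

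ChIP-seq, in which DNA cross-linked to a protein is recovered with an antibody and sequenced, was run on whole embryos with the stage label 0 to 8 h. The labels list 2 TCF ChIP libraries and 2 input libraries, all from 1 strain and of unknown sex. All 4 libraries share the alleles y[1], cn[1], bw[1] and sp[1], which mark yellow, cinnabar, brown and speck, together with oc[R3.2], Gr22b[1], Gr22d[1], CG33964[R4.2], Rh6[1], GstD5[1], lab[R4.2], LysC[1] and MstProx[1]. The antibody was a crude rabbit polyclonal serum against the N-terminus of TCF, and whole embryos mix all tissues. The collection protocol speaks of an egg-laying window of 8 to 16 h, which differs from the stage label. All libraries are represented by 1 peak list with 1 score per peak. The list therefore gives no value per library and no replicate error, the sequencing depth is unknown, and no difference below was tested. Peaks are not replicates, and all comparisons are descriptions of this list.

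TCF peaks in the ci and pan window were concentrated in a short stretch. Of the 13 peaks, 10 lay between 74976 and 97298, which is 22.3 kb or 19.4% of the 0.115 Mb window. That stretch held 85.4% of the base pairs under peaks in the window. It consisted of 2 groups of 5 peaks each, separated by a gap of 5.95 kb without a peak, where a group is a run of peaks with at most 5000 bp between one and the next. The number of groups depends on that limit. With at most 2000 bp allowed, the left-hand group stayed whole and the right-hand one fell into runs of 1, 3 and 1 peaks, and with at most 10000 bp both joined with the next peak into 1 group of 11. The other 3 peaks stood alone, 1 to the left and 2 to the right. The first 63.5 kb of chromosome 4 held no peak in the list, and this includes the first 33.5 kb of the window. The last 23.2 kb of the window held none either.

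**Figure D1:**
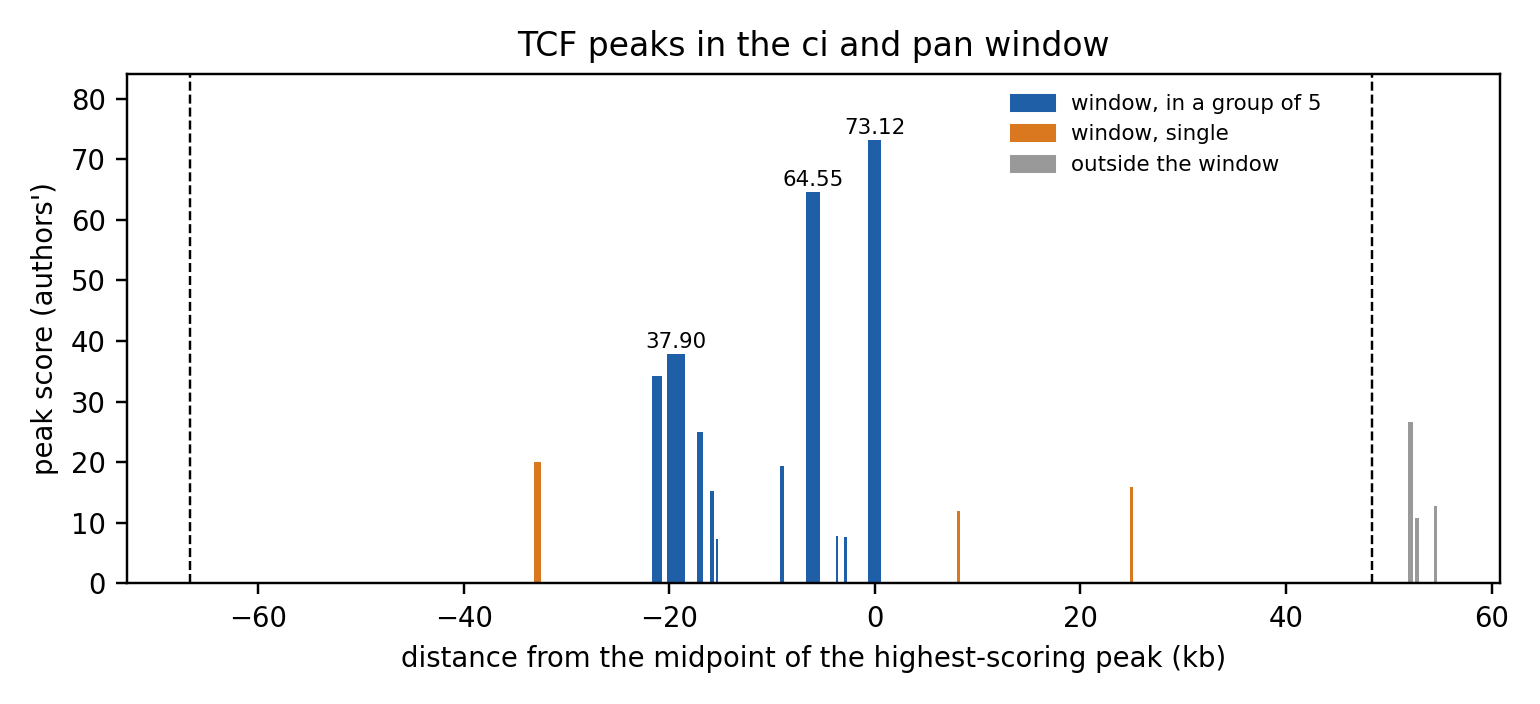
Position and score of the 13 TCF peaks of the ci and pan window. The x axis gives the distance in kb from the midpoint of the highest-scoring peak, the y axis the authors' score, bar widths are peak widths to scale, dashed lines mark the window edges, dark blue bars belong to the 2 groups of 5 peaks, orange bars are single peaks, and the grey bars are the 3 nearest peaks outside. The right-hand group holds the 2 highest scores, 73.12 and 64.55, and the left-hand group reaches 37.9.

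The score is the authors' own value for each peak and has no name or scale in the file. The score steps of the whole list matched a Poisson tail with an expected pileup of 71.7 reads, which allowed an implied fold over that single expectation to be given for each of the 13 peaks. The 95% intervals given with a fold are exact Poisson intervals and cover counting error only. The fold is taken at the point that the caller scored in each peak, and so it is high by selection. It is relative to 1 expectation for the whole list, not to the input at that place.

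The right-hand group, from 87400 to 97298, contained the peaks with the highest scores in the window. The peak at 96052 to 97298 was 1247 bp wide and had a score of 73.12. Its implied fold was 3.82 (95% interval 3.38 to 4.30), and it ranked 8 among the 135 peaks of chromosome 4 and 500 among the 4544 peaks of the 6 chromosome arms. The peak at 89955 to 91321 was 1367 bp wide, with a score of 64.55, an implied fold of 3.61 (3.18 to 4.08) and rank 9 on chromosome 4. The intervals of these 2 peaks overlap, so their order is not settled at this counting error. Between them lay a pair of the weakest peaks of the window. The peak at 92868 to 93072 was 205 bp wide with a score of 7.86, and the peak at 93683 to 93948 was 266 bp wide with a score of 7.62. Their implied folds were 1.73 (1.44 to 2.06) and 1.71 (1.43 to 2.05), and these intervals lie below those of the strong peaks on both sides. The group opened on the left with an intermediate peak at 87400 to 87820, which was 421 bp wide with a score of 19.4 and an implied fold of 2.26 (1.92 to 2.63).

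The left-hand group, from 74976 to 81451, was more compact and had its stronger peaks on its left. Peaks covered 61.8% of its 6.48 kb, against 35.4% of the 9.90 kb of the right-hand group. The peak at 76449 to 78195 was the widest of the window, at 1747 bp, and had a score of 37.9 and an implied fold of 2.89 (2.51 to 3.31). Its left neighbour, at 74976 to 75989, was 1014 bp wide, with a score of 34.3 and an implied fold of 2.77 (2.40 to 3.19). Only 0.459 kb separated these 2 peaks, and their intervals overlap. To the right the scores declined. The peak at 79374 to 79957 had a score of 25.01 and an implied fold of 2.47 (2.12 to 2.86). The peak at 80608 to 81015 had a score of 15.3 and an implied fold of 2.09 (1.77 to 2.45), and the peak at 81206 to 81451 had the lowest score of the window, 7.38, with an implied pileup of 122 reads and an interval of 1.41 to 2.03 as a fold. Neighbours in this series have overlapping intervals, while the interval of the last peak lies below those of the first 3. The interval of the strongest peak of the window, 3.38 to 4.30, lies above that of every peak of the left-hand group. The interval of the second strongest, 3.18 to 4.08, overlaps those of the group's 2 highest peaks. Overlap of intervals is not a test of a difference, and these differences were not tested.

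The single peaks were weak to intermediate. The leftmost peak of chromosome 4 in the list, at 63517 to 64219, was 703 bp wide with a score of 20.1 and an implied fold of 2.29 (1.95 to 2.66). It was separated from the left-hand group by 10.8 kb. The peak at 104676 to 104941 was 266 bp wide with a score of 11.9 and an implied fold of 1.94 (1.63 to 2.29). The peak at 121474 to 121789 was 316 bp wide with a score of 15.9 and an implied fold of 2.12 (1.80 to 2.48). These 3 intervals overlap one another. The gap of 16.5 kb between the last 2 was the longest between neighbouring peaks inside the window.

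**Figure D2:**
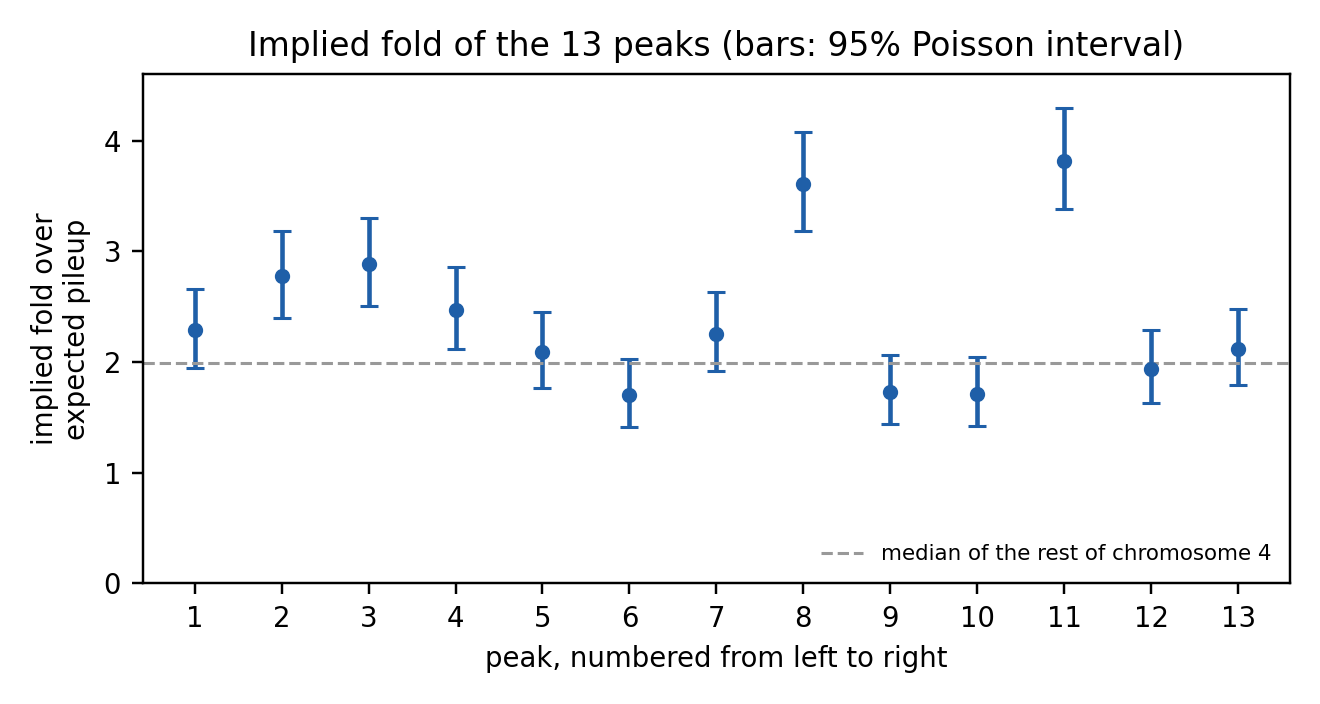
Implied fold over the expected pileup for the 13 peaks, numbered from left to right. Points are the implied folds, bars are exact 95% Poisson intervals that cover counting error only, and the dashed line is the median of 1.99-fold on the rest of chromosome 4. Peaks 8 and 11 lie highest, at 3.61-fold and 3.82-fold, and peaks 6, 9 and 10 lie lowest, at or below 1.73-fold.

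The edges of the window did not cut through a group of peaks. The last peak inside had its midpoint 23.4 kb from the right edge. The first peak outside, at 148517 to 149043 with a score of 26.6, had its midpoint 3.78 kb beyond that edge and followed the last inside peak after 26.7 kb without a peak. With the peaks at 149232 to 149593 (score 10.7) and 151036 to 151404 (score 12.8) it formed a separate group of 3. On the left, 0 peaks of chromosome 4 lay outside the window.

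In number, TCF peaks at ci and pan were close to what the rest of chromosome 4 held. The window contained 9.63% of the peaks of chromosome 4 and 9.18% of its length, taken up to the end of the last peak. With 113 peaks per Mb (exact Poisson 95% interval 60.2 to 193), its density was 1.05 times that of the rest, which had 107 per Mb (89.0 to 128). Both intervals cover counting error only and treat peaks as independent, although many peaks lay in groups. Peaks covered 7.64% of the window and 6.60% of the rest. Chromosome 4 was also divided into adjacent windows of 0.115 Mb, 10 of them complete. By number of peaks the ci and pan window ranked 6 of these 10, and the other 9 held between 5 and 19 peaks with a median of 14. By covered length it ranked 5, where the others ranged from 2.49% to 12.0% with a median of 6.12%.

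Peak scores at ci and pan were higher at the median than on the rest of the chromosome, with wide overlap. In the window the lowest score was 7.38, the median 19.4 and the highest 73.12. On the rest the lowest was 6.24, the median 13.1 and the highest 494. The 95% interval of the window median, taken from the ranked scores, was 7.86 to 37.9. It contains that of the rest, 12.47 to 15.28, so the order of the medians is not settled. As implied folds, the medians were 2.26 in the window and 1.99 on the rest. Of the 13 window peaks, 9 scored above the median of the rest, and of the 122 other peaks, 28 (23.0%) scored above the median of the window. The median of all arm peaks, 15.9, was also above that of the rest. Most arm peaks therefore scored above the median of the rest as well, and the count of 9 is not particular to the window. A score under 8 was found for 3 of 13 window peaks (23.1%) and for 6 of 122 peaks of the rest (4.92%). That limit was chosen after the values were seen. On all arms, 2.93% of peaks scored below 7.86, the highest score of these 3. This arm share leaves out peaks at 7.86 itself, so it understates the share under 8. The window peak at 7.86 ranked 4364 among the 4544 arm peaks, with tied peaks given the same rank. The window's share rests on 3 peaks, 2 of them neighbours 0.61 kb apart, and the difference was not tested. Among the 10 complete windows the median score of the ci and pan window ranked 2, and its highest score ranked 5.

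High-scoring peaks made up a larger share of the list at ci and pan than on the rest of chromosome 4, and the share was close to that of all 6 arms. Of the 4544 arm peaks, 25.3% lay at or above a score of 32.9, the limit of the highest 25% with ties included. In the window, 4 of 13 peaks did so (30.8%, exact Clopper-Pearson 95% interval 9.09 to 61.4), and on the rest of chromosome 4, 14 of 122 (11.5%, interval 6.42 to 18.5). These intervals cover counting error only and treat neighbouring peaks as independent, and the difference was not tested. With only such peaks counted, the density in the window was 2.83 times that of the rest, a ratio that rests on 4 peaks. A score in the upper 50% of the arms, which 51.1% of arm peaks reached with ties, was found for 8 window peaks (61.5%) and for 46 peaks of the rest (37.7%). An implied fold of at least 3 was found for 2 of the 13 window peaks (15.4%), for 12 of 118 peaks with an implied fold on the rest (10.2%) and for 847 of the 4300 arm peaks with an implied fold (19.7%).

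The strongest peaks of chromosome 4 lay elsewhere. On the rest of the chromosome 7 peaks scored above the best peak of the ci and pan window. The strongest was a 6028 bp peak at 722633 to 728660 with a score of 494 and an implied fold of 10.8 (10.0 to 11.5). The second was a 590 bp peak at 1133637 to 1134226 at 6.26-fold (5.69 to 6.87), and the third lay beside the first, at 728963 to 731608, at 5.59-fold (5.06 to 6.17). The intervals of all 3 lie above that of the best window peak, 3.38 to 4.30. On the 6 arms together, 503 peaks (11.1%) scored at least as high as the best window peak.

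**Figure D3:**
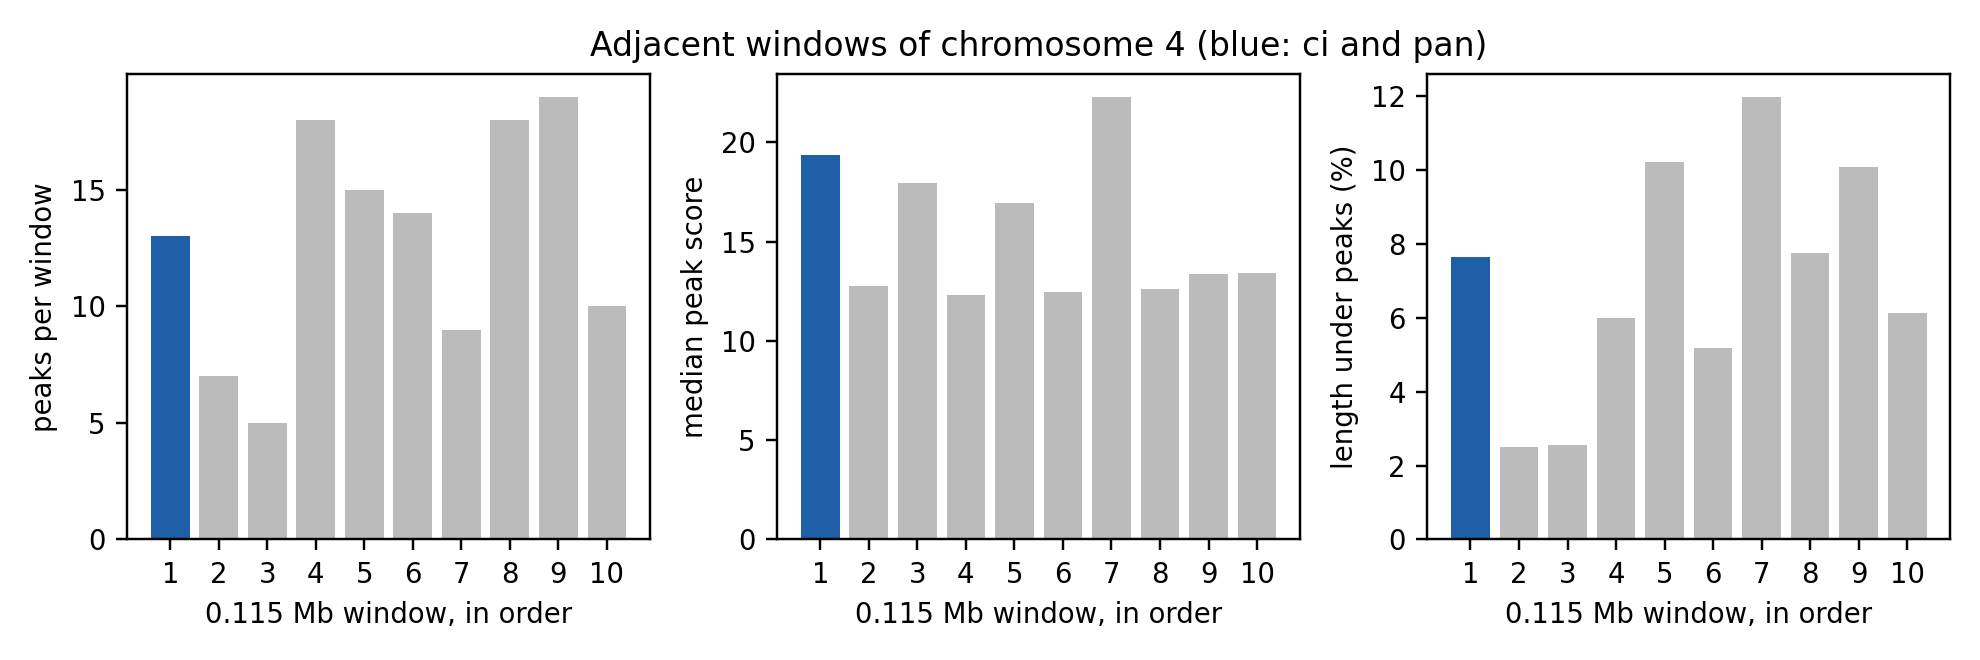
Number of peaks, median authors' score and percent of length under peaks in the 10 complete adjacent windows of 0.115 Mb of chromosome 4, in order along the chromosome. The blue bar is the ci and pan window, with 13 peaks, a median score of 19.4 and 7.64% covered, and grey bars are the other 9 windows.

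At ci and pan the peaks of high score were the wide ones. The 4 peaks with the highest score were also the 4 that were at least 1000 bp wide, and they held 61.1% of the base pairs under peaks in the window. Across the 13 peaks Spearman's rho of score and width was 0.95. Across the 122 peaks of the rest it was 0.73, and across all arm peaks 0.81. Score and width are both read from the same pileup, and the relation is given as a description. Peaks of at least 1000 bp were 30.8% of the window peaks, 13.1% of the rest and 20.2% of arm peaks. The median width was 421 bp in the window and 447 bp on the rest, with 205 to 1747 bp as the range in the window. With neighbours less than 1000 bp apart joined, the order turned, with medians of 1081 bp in the window and 635 bp on the rest.

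**Figure D4:**
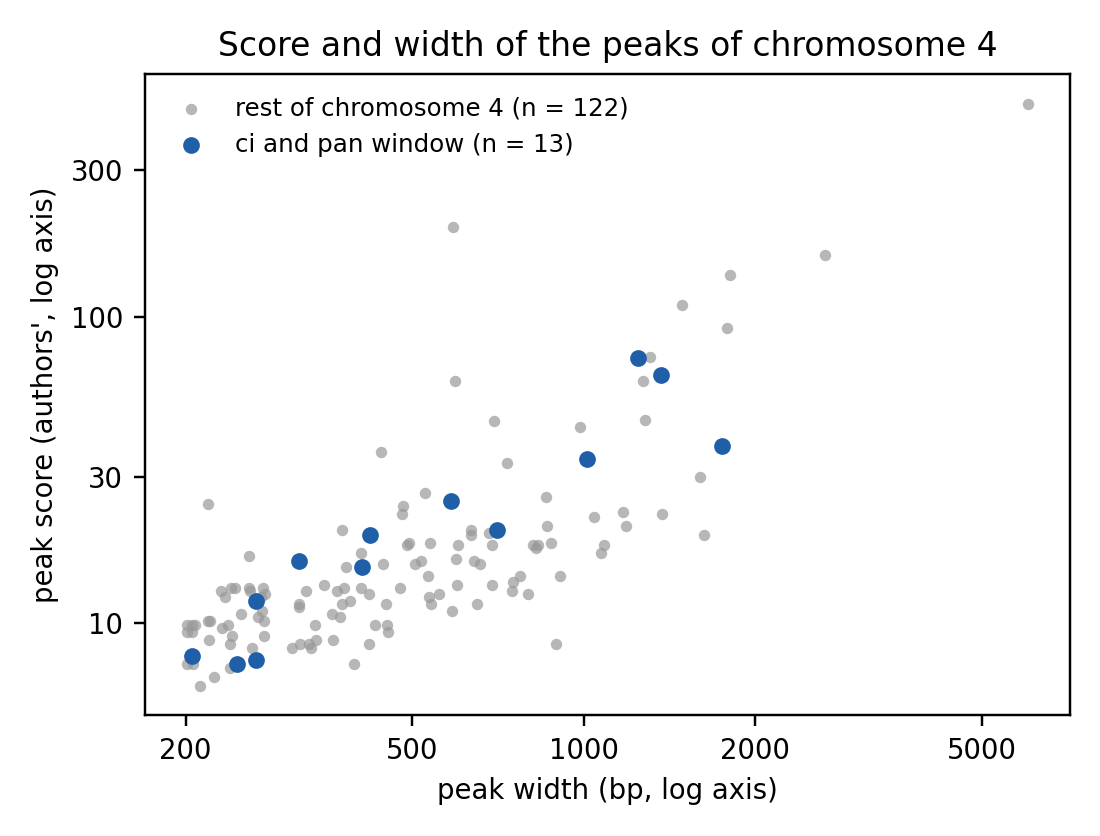
Score against width for the 13 peaks of the ci and pan window (blue) and the 122 remaining peaks of chromosome 4 (grey), both on log axes. The blue points fall into 4 peaks at least 1000 bp wide with scores from 34.3 to 73.12 and 9 narrower peaks with scores from 7.38 to 25.01.

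Most window peaks lay in groups of at least 5, and chromosome 4 as a whole had many such peaks. In the window 10 of 13 peaks (76.9%) were in such groups, against 53 of 122 (43.4%) on the rest of chromosome 4 and 26.1% of arm peaks. Grouped peaks come in blocks, and the window's count is made of only 2 groups. With at most 2000 bp between peaks, a setting chosen for this count after the data were seen, the shares were 38.5% in the window (5 of 13), 29.5% on the rest and 11.7% on all arms. The 135 peaks of chromosome 4 formed 52 groups or single peaks, of which 8 held at least 5 peaks, 2 of them at ci and pan. The 6 groups on the rest held up to 16 peaks and spanned 6.13 to 34.9 kb. Their highest scores ran from 12.8 to 494 with a median of 85.3. The right-hand group of the window, with 73.12, exceeded 3 of these 6, and the left-hand group, with 37.9, exceeded 2. Peaks covered 22.0% to 77.0% of the span of these 6 groups, a range that includes both window groups.

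Stretches as dense as that at ci and pan were also found on the rest of chromosome 4 and on 2L, 2R, 3L and 3R, and none on X. These stretches were looked for after the 22.3 kb stretch at ci and pan had been seen. On the rest of chromosome 4, the fullest stretch of the same length also held 10 peaks, from 507547 to 527758, with a highest score of 109. The fullest such stretches held 14 peaks on 2L, 12 on 2R, 14 on 3L and 16 on 3R. On X the fullest held 9. Midpoints of closest neighbours were at a median distance of 1840 bp at ci and pan, 1568 bp on the rest of chromosome 4 and 2323 bp on all arms.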

How the data were processed

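ChIP-seq of TCF in fly embryos was analysed from 1 deposited peak list. Per the file headers, coordinates are on FlyBase release 5 and the feature source is MACS. The submitters' processing notes name BWA, MACS2, the build BDGP5 and CASAVA in versions 1.7.0.2 and 1.7.0.3, and give no role for them. How reads were filtered, which threshold was set and whether replicates were pooled before calling is not given in the sources used here. The score of each peak was deposited by the authors without a scale. Expected pileups from 1 to 400 were searched for the value at which scores equal -log10 of a Poisson upper tail at a whole-number pileup. At 71.7, 4341 of 4589 scores (94.6%) matched within 0.01, against 37.7% at the best value at least 1% away. The pileup is known to within 1 (0.014 in fold), because the tail may include or exclude the observed value. Peaks that did not match got no fold.

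Every peak of the window is named. On the rest of chromosome 4 the 3 peaks with the highest score are named, with the nearest peaks outside the window and, chosen after its values were seen, 1 stretch of peaks. The window, lists and alternatives were chosen with earlier results of these data known. Densities use the end of the last peak as the length of chromosome 4. The planned search of promoters and proteins of ci and pan, and values at other Wnt and Hedgehog pathway genes, were not run here. The scripts were tested on simulated data. The work used matplotlib 3.10.9, pandas 2.3.3, SciPy 1.17.1, NumPy 2.4.6 and Python 3.11.15.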

Additional observations from a re-analysis of the deposited data

How the results depend on the processing

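Counting a peak by any overlap or moving the window edges by 10 kb kept 13 to 16 peaks. Keeping the upper 50% or 25% of arm peaks by score left 8 and 4 peaks, by construction. The density ratio to the rest of chromosome 4, 1.05, lay between 1.05 and 1.72 under the other alternatives and was 2.83 in the upper 25%, where it rests on 4 peaks. With peaks closer than 1000 bp merged, the median score and width on the rest of chromosome 4 were 15.6 and 635 bp, since merging keeps the higher score and joins widths. Against these stood medians of 20.1 and 1081 bp in the window, which then held 9 regions. The order of the median widths was the reverse of that before merging, and neither order is settled. With gaps of up to 10000 bp the largest group in the window held 11 peaks, from 74976 to 104941, in place of 5, since both groups of 5 and the next peak then join. With gaps of up to 2000 bp only the left-hand group of 5 remained, and 5 window peaks in place of 10 were in groups of at least 5. That count's alternatives were chosen after seeing the data. No paired analysis was possible because libraries have no values of their own here, and for that reason none could be left out. Depth is unknown, so stretches without a peak cannot be read as unbound.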
